A study of Mus musculus with 12 samples.

Results

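The genes described here are the 10 that encode the constant regions of the T cell receptor chains and the CD3 chains that carry the receptor's signal. They were taken from the deposited table by their Ensembl identifiers, as the rows that map to Trac, Trbc1, Trbc2, Trdc, Trgc1, Trgc2, Cd3d, Cd3e, Cd3g and Cd247, and they are 10 of the 54532 genes in it. The rule itself uses no measured value, though the set was proposed with earlier results of these data known. The 12 libraries were made from colon RNA of wild type C57BL/6J mice in 4 groups of 3. The HFD+DSS group had the diet labelled HFD and 2% DSS, the CD+DSS group had the diet labelled CD and 2% DSS, the HFD group had that diet alone, and the CD group had the CD diet alone. DSS is dextran sulfate sodium, a detergent-like polymer that injures the colon lining. The labels write the diets only as CD and HFD, and they give no age. They do not say that the 3 libraries of a group came from separate mice, so the p-values measure only the spread between these libraries, which may be technical. In RNA of whole colon, fewer T cells and less receptor RNA per T cell cannot be told apart.

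Most T cells carry a receptor made of an alpha and a beta chain, and others, frequent in the gut lining, carry a gamma and a delta chain. Each chain joins a variable region, assembled by DNA recombination, to a constant region that is shared by all cells using that gene. The receptor chains have almost no tail inside the cell, and signals pass through the CD3 gamma, delta, epsilon and zeta chains, encoded by Cd3g, Cd3d, Cd3e and Cd247, whose tails are phosphorylated by Lck and then bind Zap70. In the colon of mice, intraepithelial lymphocytes sit between epithelial cells, and further T cells lie in the lamina propria and in lymphoid follicles.

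The beta chain has a pair of constant regions and the gamma chain several, and how alike they are bears on how their values can be read. Trbc1 lies at chr6:41538218-41539881 and Trbc2 at chr6:41546730-41548352, both on the plus strand of mm10. Over the first 500 bases of the constant region transcripts in GENCODE M21 they were 96.2% identical, with 19 differences and an identical run of 259 bases, and 18 of the differences fell in positions 361 to 500. That window is shown for both genes, 5′ to 3′, with the bases that differ in capitals.
Trbc1: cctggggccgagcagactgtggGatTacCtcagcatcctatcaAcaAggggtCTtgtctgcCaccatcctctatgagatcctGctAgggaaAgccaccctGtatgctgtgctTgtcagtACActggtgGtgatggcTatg
Trbc2: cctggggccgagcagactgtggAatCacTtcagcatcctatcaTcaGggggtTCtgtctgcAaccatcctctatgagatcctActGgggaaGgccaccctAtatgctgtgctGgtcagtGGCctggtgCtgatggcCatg
Trgc1, at chr13:19214103-19217024 on the plus strand, and Trgc2, at chr13:19304649-19307551 on the minus strand, were 97.3% identical over 330 bases, with 9 differences and a longest identical run of 71 bases. Positions 81 to 220, which hold 5 of the differences, are shown in the same way.
Trgc1: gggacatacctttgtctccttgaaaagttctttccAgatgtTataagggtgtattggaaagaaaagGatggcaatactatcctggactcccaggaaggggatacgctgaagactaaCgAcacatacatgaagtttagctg
Trgc2: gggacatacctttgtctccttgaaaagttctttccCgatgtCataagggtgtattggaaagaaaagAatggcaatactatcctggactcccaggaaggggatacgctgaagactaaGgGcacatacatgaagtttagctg
How the authors counted fragments that match both copies is not given in the sources used here, so the split between Trbc1 and Trbc2, and between Trgc1 and Trgc2, is uncertain. Of the other gamma constant regions, which are not among the 10 genes, Trgc4 had 496 fragments over the 12 libraries and Trgc3 had 8.

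The genes of 3 CD3 chains are neighbours on chromosome 9, where Cd3g (chr9:44969572-44980431, minus strand) and Cd3d (chr9:44981786-44987339, plus strand) start 1355 bases apart and point away from each other, and Cd3e (chr9:44998740-45009627, minus strand) follows 11401 bases after Cd3d. Cd247 lies apart, at chr1:165788681-165877277 on the plus strand. Since Cd3d and Cd3g levels moved together over libraries, the 250 bases before the RefSeq start (GRCm38.p6) of the 3 neighbours are shown 5′ to 3′ on each gene's strand. Capitals mark AGGAAG or its reverse complement CTTCCT, the core bound by ETS factors such as Ets1.
Cd3d (chr9:44981536-44981785): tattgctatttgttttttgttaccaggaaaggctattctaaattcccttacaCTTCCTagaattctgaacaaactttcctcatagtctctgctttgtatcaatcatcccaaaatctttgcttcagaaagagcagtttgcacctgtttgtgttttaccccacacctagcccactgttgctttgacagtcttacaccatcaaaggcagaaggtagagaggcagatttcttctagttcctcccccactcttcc
Cd3e (chr9:45009612-45009861): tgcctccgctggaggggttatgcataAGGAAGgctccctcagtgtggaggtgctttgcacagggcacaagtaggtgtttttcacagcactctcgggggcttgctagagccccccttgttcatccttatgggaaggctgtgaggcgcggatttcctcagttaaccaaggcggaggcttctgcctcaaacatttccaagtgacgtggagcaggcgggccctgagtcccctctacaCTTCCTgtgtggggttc
Cd3g (chr9:44980432-44980681): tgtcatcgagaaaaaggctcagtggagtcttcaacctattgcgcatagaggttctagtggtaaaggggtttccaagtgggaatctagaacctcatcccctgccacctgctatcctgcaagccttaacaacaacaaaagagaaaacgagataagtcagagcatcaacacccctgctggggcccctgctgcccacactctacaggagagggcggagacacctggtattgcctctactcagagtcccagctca
The core was found once before Cd3d, at 2 places before Cd3e and nowhere in the window of Cd3g, and the window of Cd247 held it once. On either strand it was in 29.5% of 32851 RefSeq windows of this length. CACCTG, an E-box whose matches here did not overlap those of the core, was in 3 of the 4 CD3 windows on either strand, against 17.2% of all windows. Of the other motifs searched on both strands, the E-box CAGCTG was in 0 of the 4 windows and in 4271 of all, TGTGGT, bound by RUNX factors, in 0 and in 4614 of all, and AGATAA, bound by GATA factors, in 1 and in 3281 of all. These matches describe letters and are not measured sites.

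The unit of the table is FPKM, fragments scaled to gene length and to a size per library. Between 14657812 and 17932320 fragments on genes stood behind each library, and the sizes used for scaling differ from these numbers. Every library had the same median ratio to the geometric mean, 1.009, so medians near 0 over all tested genes are partly set by that scaling. All 10 genes were above 0 in all 12 libraries, on 17 (Cd3d, CD replicate 1) to 285 (Cd3g, CD+DSS replicate 1) fragments a gene, so single values carry large counting error. Epcam, an epithelial surface protein that marks the colon lining, was at 599 to 1195 FPKM. Ptcra, used by developing T cells, and Rag1, used by developing T and B cells, were at 0 in every library. The other genes of their list were not at 0 throughout. Rag2 was at 0.0367 FPKM in HFD replicate 1 and 0.0190 in HFD replicate 3. Dntt was at 0.0529 FPKM in HFD+DSS replicate 2, 0.0276 in CD+DSS replicate 1, 0.215 in HFD replicate 3 and 0.0846 in CD replicate 3. Summed FPKM of 11 B cell genes was 136 in HFD+DSS replicate 1, 116 in CD replicate 2 and 89.1 in CD+DSS replicate 1, against 18.0 to 52.1 in the other 9 libraries. Smooth muscle genes summed to 2953 FPKM in HFD+DSS replicate 3 and to 622 to 1726 FPKM in the other libraries. Hoxb13, a marker of the most distal gut, was at 27.4, 37.8 and 62.8 FPKM in HFD+DSS libraries, 22.6, 0.0336 and 0.122 in CD+DSS, 0.711, 0 and 19.3 in HFD, and 32.9, 61.3 and 28.8 in CD. The lowest library of HFD+DSS and CD, at 27.4 FPKM, was thus above the highest of CD+DSS and HFD, at 22.6 FPKM.

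Per kilobase of summed exons, the constant regions other than Trdc had higher mean levels than the CD3 chains. Over the 12 libraries the mean level was 9.05 ± 3.67 FPKM for Trbc2, 7.13 ± 2.57 for Trac, 6.72 ± 3.66 for Trbc1, 5.77 ± 2.76 for Trgc2 and 3.96 ± 1.74 for Trgc1 (SD, n = 12). Below them came Cd3g at 2.86 ± 1.26 FPKM, Cd3d at 2.58 ± 1.32, Cd3e at 1.14 ± 0.627, Trdc at 0.680 ± 0.320 and Cd247 at 0.488 ± 0.243 FPKM (SD, n = 12). Cd3d was above Cd3e in 12 of 12 libraries and Cd3e above Trdc in 11 of 12, while Trac was above Trbc1 in 7 of 12 and Trbc1 above Trgc2 in 7 of 12, so those neighbours did not differ beyond their spread. The constant regions other than Trdc, with the highest levels, also had the shortest gene models. Within them, and within the rest, the order did not follow length. Summed exon bases were 692 (Trbc2) to 935 (Trac) for the constant regions other than Trdc. They were 1815 for Cd3d, 3269 for Cd3g, 3865 for Trdc, 4080 for Cd3e and 5329 for Cd247. Whether the order holds with other gene models was not tested. Exons of Trdc overlap Trdv5 and Gm43434, those of Cd3e overlap Gm48719, and those of Cd247 overlap Gm16565 and Pou2f1, and no source says whether counting used strand.

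**Figure D1:**
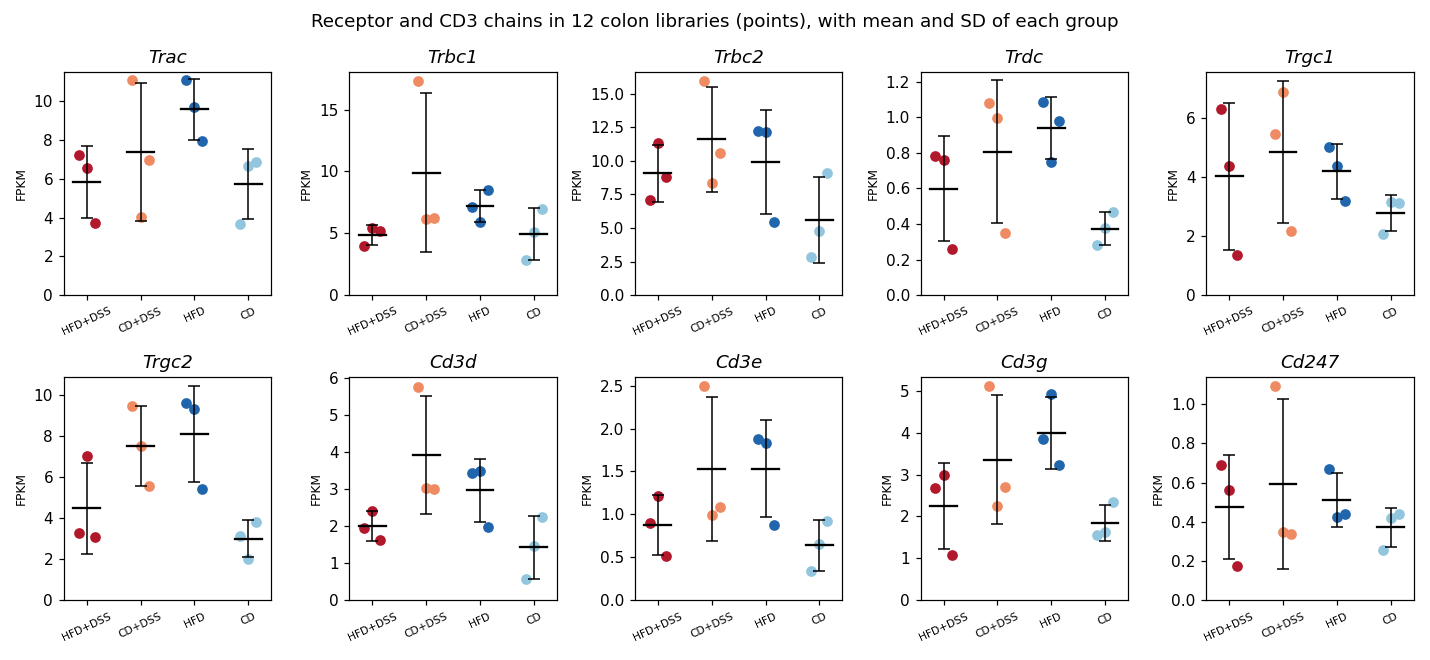
FPKM (y axis, from 0) of each of the 10 genes in 12 libraries (points), by group, with the mean (thick line) and SD (bars) of 3 libraries. CD+DSS replicate 1 was the highest library for 7 genes, and the mean of the CD group was the lowest for 9 of 10 genes.

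Trac encodes the only alpha constant region, present in every alpha-beta receptor. It was at 7.22, 6.56 and 3.70 FPKM in HFD+DSS libraries, 11.1, 4.04 and 6.96 in CD+DSS, 11.1, 9.70 and 7.95 in HFD, and 3.66, 6.67 and 6.86 in CD. Every HFD library was above every CD library and above every HFD+DSS library, while the CD+DSS libraries overlapped with each of the other groups. Trbc1 encodes the first beta constant region. Its levels were 3.94, 5.41 and 5.18 FPKM in HFD+DSS, 17.3, 6.13 and 6.27 in CD+DSS, 7.12, 5.90 and 8.53 in HFD, and 2.80, 5.10 and 6.97 in CD. The HFD+DSS libraries were all below the CD+DSS libraries and below the HFD libraries, and CD+DSS replicate 1 stood far above all others. Trbc2, the second beta constant region, was at 7.11, 11.3 and 8.78 FPKM in HFD+DSS, 16.0, 8.35 and 10.6 in CD+DSS, 12.2, 12.1 and 5.47 in HFD, and 2.86, 4.78 and 9.10 in CD. Its groups overlapped in all 4 pairwise comparisons. Of the fragments on both beta regions, 34.1% to 39.0% fell on Trbc1 in HFD+DSS libraries, 39.1% to 54.0% in CD+DSS, 34.5% to 62.8% in HFD and 45.3% to 53.6% in CD.

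The gamma regions followed different orders of libraries. Trgc1 was at 6.32, 4.39 and 1.36 FPKM in HFD+DSS, 5.47, 6.89 and 2.18 in CD+DSS, 5.03, 4.36 and 3.18 in HFD, and 2.08, 3.17 and 3.12 in CD. Of the 4 pairwise comparisons, HFD and CD libraries alone did not overlap, by a narrow margin, and replicate 3 was the lowest library of both DSS groups. Trgc2 was at 3.30, 7.02 and 3.10 FPKM in HFD+DSS, 9.45, 7.54 and 5.57 in CD+DSS, 9.62, 9.30 and 5.42 in HFD, and 3.15, 2.02 and 3.81 in CD. All CD+DSS and all HFD libraries were above all CD libraries. Trdc encodes the delta constant region, the gene here most specific to gamma-delta cells, since gamma genes are also transcribed in some alpha-beta cells of mice. Its level was 0.780, 0.757 and 0.258 FPKM in HFD+DSS, 1.08, 0.997 and 0.347 in CD+DSS, 1.09, 0.748 and 0.979 in HFD, and 0.279, 0.379 and 0.466 in CD, on 18 to 71 fragments. The HFD libraries were all above the CD libraries. The ratio of summed gamma regions to Trac, in FPKM, was 3.57 in CD+DSS replicate 2 and between 0.778 and 1.74 in the other 11 libraries, so that 1 library set the CD+DSS mean of 2.01 ± 1.36 (SD, n = 3).

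CD3 epsilon pairs with delta and with gamma in the complex of the alpha-beta receptor. Cd3e was at 0.900, 1.21 and 0.514 FPKM in HFD+DSS, 2.49, 0.999 and 1.08 in CD+DSS, 1.88, 1.83 and 0.879 in HFD, and 0.338, 0.655 and 0.926 in CD. All CD+DSS libraries were above all CD libraries, by a narrow margin. Cd3d, the delta chain, was at 1.95, 2.42 and 1.62 FPKM in HFD+DSS, 5.76, 3.02 and 2.99 in CD+DSS, 3.42, 3.50 and 1.98 in HFD, and 0.562, 1.47 and 2.25 in CD. CD+DSS libraries were above CD libraries, and HFD+DSS libraries below CD+DSS libraries, without overlap. Cd3g, the gamma chain of CD3, was at 2.67, 3.00 and 1.07 FPKM in HFD+DSS, 5.12, 2.24 and 2.71 in CD+DSS, 3.84, 4.92 and 3.23 in HFD, and 1.56, 1.64 and 2.35 in CD. Its HFD libraries lay above both the CD and the HFD+DSS libraries. Cd247, the zeta chain, which carries most of the complex's phosphorylation motifs, was at 0.689, 0.560 and 0.177 FPKM in HFD+DSS, 1.09, 0.348 and 0.340 in CD+DSS, 0.672, 0.425 and 0.441 in HFD, and 0.259, 0.418 and 0.439 in CD. Its groups overlapped throughout, and its highest value was again CD+DSS replicate 1.

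Differences were tested with limma on log2(FPKM + 1), in 1 fit of 14179 genes that reached 1 FPKM in at least 3 libraries, and the call threshold was an adjusted p of 0.05 (Benjamini-Hochberg, over all of them). Of the 10 genes, 8 entered. Trdc reached 1 FPKM in 2 libraries and Cd247 in 1, and both stayed out. Cd3e reached it in 5 libraries, none of them in the CD group, so it entered through the other groups. With only the groups of CD+DSS against CD, or of HFD against CD, in the fit, 7 of the 10 entered and Cd3e did not. Log2 differences on this scale understate the change of low genes.

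In CD+DSS against CD, which asks what DSS did under the CD diet, none of the 8 tested genes was called, and 12 of all genes were, 0.0846%. Means were higher in CD+DSS for all 10 genes, by 1.29 to 2.75 times in FPKM, and 3 of the 10, Trgc2, Cd3d and Cd3e, had no overlap between groups, a state that 13.7% of all tested genes showed in this direction. The median log2 difference of the 8 was 0.69, against 0.01 over all tested genes, and all 8 were positive, as were 51.5% of all. Trgc2 averaged 7.52 ± 1.94 FPKM in CD+DSS and 2.99 ± 0.904 in CD (SD, n = 3 each), a log2 difference of 1.09 ± 0.30 (SE, limma, adjusted p = 0.158). For Cd3d the means were 3.92 ± 1.59 FPKM in CD+DSS and 1.43 ± 0.844 in CD, with a log2 difference of 1.04 ± 0.29 (SE, limma, adjusted p = 0.165). Unadjusted p was under 0.05 for 5 of the 8, all higher in CD+DSS, as it was for 8.67% of all tested genes in that direction. Cd3e, among the 3 and among the 5, reached the filter level in no CD library. CD+DSS replicate 1 bears on these values, since without it the median fell to 0.38, 2 of the 8 were under 0.05 unadjusted, and Trac turned to -0.05. That count was also 2 without CD replicate 1 or CD replicate 2, and 3 without replicate 1 or 2 of HFD+DSS or of HFD, which enter through the shared variance. It rose to 6 without CD+DSS replicate 2 or CD+DSS replicate 3.

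In HFD+DSS against HFD, the DSS comparison under the HFD diet, none of the 8 was called either, and 48 of all genes were, 0.339%. The means of all 10 genes were lower in HFD+DSS, at 0.551 to 0.960 times those in HFD. For 3 of the 10, Trac, Trbc1 and Cd3g, the groups did not overlap, as for 7.6% of all tested genes in this direction. The median log2 difference of the 8 was -0.45, against 0.01 for all tested genes, and all 8 were negative, as were 49.1% of all. Trac averaged 5.83 ± 1.87 FPKM in HFD+DSS and 9.58 ± 1.57 in HFD (SD, n = 3 each), with a log2 difference of -0.66 ± 0.33 (SE, limma, adjusted p = 0.403). The log2 difference of Trgc2 was -0.77 ± 0.30 (SE, limma, adjusted p = 0.305) and that of Cd3g -0.67 ± 0.29 (adjusted p = 0.350), the 2 genes with an unadjusted p under 0.05 in this direction, against 6.23% of all tested genes. HFD+DSS replicate 3, the library with the highest smooth muscle sum and the lowest level of 4 of the 10 genes, bears on these values: without it the median was -0.33, none of the 8 had an unadjusted p under 0.05, and Trgc1 turned to 0.29. None was under 0.05 without HFD replicate 1 or HFD replicate 2 either, while 3 were without HFD replicate 3, CD+DSS replicate 1 or CD+DSS replicate 2.

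HFD against CD compares the diets without DSS. No gene of the 14179 was called (0%), with 1.77% higher in HFD at an unadjusted p under 0.05. Of the 8 genes, 4 were higher in HFD at that level: Trgc2, Cd3d, Cd3e and Cd3g. Cd3e among them reached the filter level in no CD library. Means in HFD exceeded those in CD for all 10, by 1.38 to 2.71 times, and 5 of 10 had no overlap, namely Trac, Trdc, Trgc1, Trgc2 and Cd3g. Among tested genes 4.61% were higher in HFD without overlap, and 4 of the 8 tested members were. The median log2 difference of the 8 was 0.71, against -0.02 for all genes, and all 8 were positive, as were 45.9% of all. Trgc2 averaged 8.11 ± 2.34 FPKM in HFD and 2.99 ± 0.904 in CD (SD, n = 3 each), a log2 difference of 1.18 ± 0.30 (SE, limma, adjusted p = 0.761). Without CD replicate 1 the median was 0.45 and 1 of the 8 was under 0.05 unadjusted, and that count was 1 without HFD replicate 2 and 2 without HFD replicate 1. It was 3 without CD replicate 2. It rose to 5 without HFD replicate 3, CD replicate 3, HFD+DSS replicate 3, CD+DSS replicate 1 or CD+DSS replicate 2.

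HFD+DSS against CD+DSS sets the diets side by side under DSS. Again none of the 14179 tested genes was called (0%). Means of all 10 were lower in HFD+DSS, at 0.489 to 0.830 times those in CD+DSS, and Trbc1 and Cd3d did not overlap, against 5.85% of all tested genes lower without overlap. The median log2 difference was -0.41 for the 8, all of them negative, and -0.03 for all genes, of which 54.6% were negative. Cd3d differed by -0.68 ± 0.29 (SE, limma, adjusted p = 0.749) and Trgc2 by -0.68 ± 0.30 (adjusted p = 0.749), the 2 genes with an unadjusted p under 0.05 here, against 3.84% of all genes in that direction. Without CD+DSS replicate 1 none of the 8 was under 0.05 and the median was -0.15. None was without HFD+DSS replicate 1 or replicate 3, where the median was -0.54 and -0.27, and 1 was without HFD replicate 2. Without CD+DSS replicate 3 or CD replicate 3 the count was 3. These 4 comparisons share their groups in pairs, so their directions are not separate observations.

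The interaction asks whether the DSS difference under HFD differed from that under CD. It called none of the 14179 tested genes (0%), with 387 lower at an unadjusted p under 0.05. All 8 estimates were negative, as were 51% of all, with a median of -1.16 against -0.01 for all tested genes. Trgc2 had an interaction of -1.87 ± 0.43 (SE, log2, limma, adjusted p = 0.560), Cd3d of -1.43 ± 0.41 (adjusted p = 0.693), Trbc1 of -1.27 ± 0.50 (adjusted p = 0.861) and Cd3g of -1.23 ± 0.40 (adjusted p = 0.760). With Cd3e, at -1.01 ± 0.38 (adjusted p = 0.816), these were the 5 with an unadjusted p under 0.05, as 2.73% of all genes were in that direction. Cd3e reached the filter level in 5 libraries, all but HFD+DSS replicate 2 from CD+DSS or HFD. It thus entered mostly through the groups where it was high, and its place among the 5 adds no support. Trbc2, Trac and Trgc1 had -1.08 ± 0.53, -0.93 ± 0.46 and -0.72 ± 0.58. Leaving out CD+DSS replicate 1 brought the median to -0.83 and left 3 of the 8 under 0.05 unadjusted, as did leaving out CD replicate 1, with a median of -0.93. Hoxb13, whose low libraries fall in the CD+DSS and HFD groups, moved along the same contrast, with an interaction of 7.39 ± 1.73 (log2, adjusted p = 0.560). With the mean level of 3 posterior Hox genes as a covariate, the median of the 8 genes was -1.28, and 1 of the 8 had an unadjusted p under 0.05, against 5 without the covariate. With the same covariate that count was 2 of 8 in CD+DSS against CD, 1 in HFD+DSS against HFD, 3 in HFD against CD and 1 in HFD+DSS against CD+DSS. The share of all genes at that level was not counted with the covariate. Since Hoxb13 was higher in every HFD+DSS and CD library than in any CD+DSS or HFD library, Hox level and the interaction cannot be told apart here. The counts with the covariate do not separate them.

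**Figure D2:**
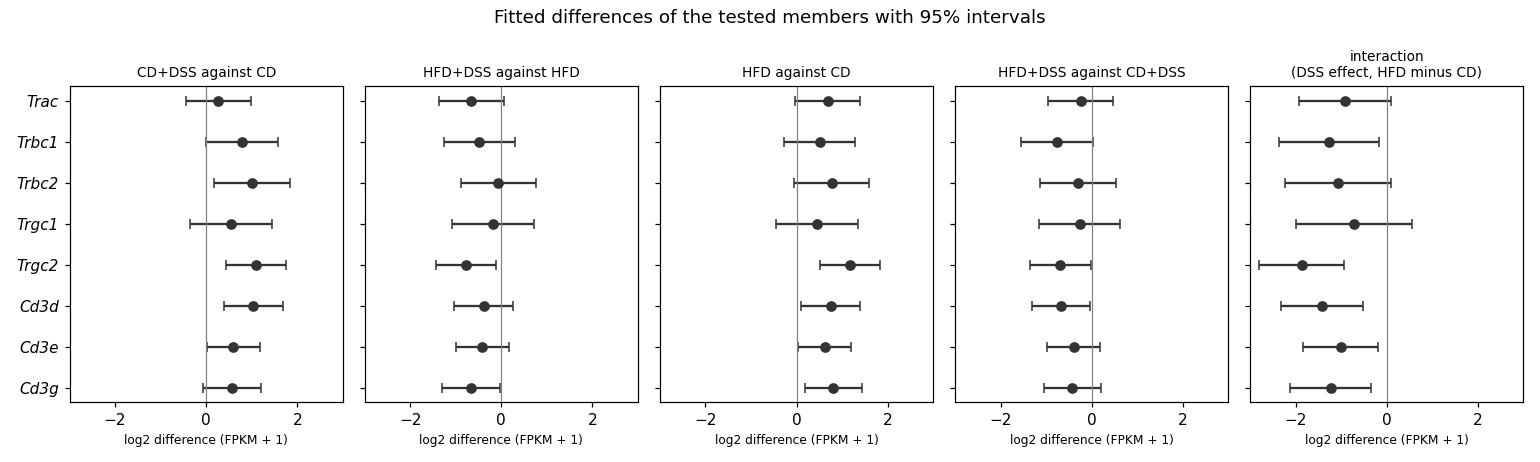
Fitted log2 differences (x axis, log2 of FPKM + 1) with 95% intervals for the 8 tested genes in the 4 pairwise comparisons and the interaction. All 8 points are right of 0 in CD+DSS against CD and in HFD against CD, and left of 0 in the other panels, and no adjusted p was under 0.05.

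Genes of the wider T cell programme were counted in lists set with earlier results of these data known. Of 23 proximal signalling genes 18 were tested, none was called in any contrast, and 16 had a negative interaction, with a median of -0.36. Over all tested genes 51% had a negative interaction. Lck, the kinase that phosphorylates the CD3 tails, was at 3.90, 3.77 and 3.49 FPKM in HFD+DSS, 8.68, 4.55 and 5.20 in CD+DSS, 6.09, 5.23 and 3.81 in HFD, and 2.80, 2.91 and 3.44 in CD. Its CD+DSS libraries were above its CD libraries, and its interaction was -1.12 ± 0.29 (SE, limma, adjusted p = 0.560). Lat, the adaptor that links the receptor to calcium and Ras signals, had -0.82 ± 0.34 (SE, limma, adjusted p = 0.885).

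Coreceptors and costimulatory genes gave 15 tested of 17, 14 of them with a negative interaction, against 51% of all tested genes, and none called. Cd8a, the alpha chain of the CD8 coreceptor, was at 2.60, 3.68 and 1.73 FPKM in HFD+DSS, 10.5, 6.21 and 4.61 in CD+DSS, 5.89, 5.83 and 3.59 in HFD, and 1.70, 2.08 and 3.36 in CD. Every CD+DSS library was above every CD library, with a log2 difference of 1.23 ± 0.30 (SE, limma, adjusted p = 0.128). The ratio of Cd8a to Cd4 in FPKM was 0.877, 0.711 and 1.34 in HFD+DSS, 1.83, 3.56 and 1.23 in CD+DSS, 0.969, 1.12 and 1.19 in HFD, and 0.709, 0.469 and 0.632 in CD. The CD ratios were below those of every other library, and the nearest of these, HFD+DSS replicate 2, was almost level with CD replicate 1. Cd8b1, the beta chain of conventional CD8 cells, had an interaction of -1.82 ± 0.47 (adjusted p = 0.560).

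Of the lists, intraepithelial lymphocyte genes had the most negative median interaction among those of immune cells, -1.55, with 10 of 10 tested genes below 0, 8 of them at an unadjusted p under 0.05 and none called. Over all tested genes 51% were below 0, and 2.73% were below 0 at that level. Gzma, a granzyme protease of cytotoxic granules, was at 18.6, 19.1 and 8.54 FPKM in HFD+DSS, 68.3, 37.6 and 25.5 in CD+DSS, 40.0, 41.2 and 32.9 in HFD, and 6.50, 7.46 and 23.0 in CD. Nkg7, a granule protein of cytotoxic lymphocytes, was at 2.65, 4.43 and 3.55 FPKM in HFD+DSS, 11.6, 8.51 and 8.29 in CD+DSS, 11.3, 12.0 and 8.28 in HFD, and 2.43, 2.51 and 6.04 in CD. Both genes were higher in every CD+DSS than in every CD library and lower in every HFD+DSS than in every HFD library, a pattern that 20 of the 14179 genes (0.141%) showed and none of the receptor and CD3 genes did. Natural killer cells also express both. Of the butyrophilin-like genes, some of whose epithelial products support gamma-delta cells of the gut in mice, 4 of 7 were tested, with a median interaction of -0.79 and none called. Btnl1 was at 35.4, 41.3 and 21.3 FPKM in HFD+DSS, 39.8, 74.4 and 38.2 in CD+DSS, 53.2, 38.5 and 49.4 in HFD, and 32.1, 24.6 and 31.6 in CD. All its CD+DSS and HFD libraries were above its CD libraries.

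T lineage transcription factors had a median interaction of -0.11 over 10 tested of 15, and none had an unadjusted interaction p under 0.05. Zbtb16, the factor of innate-like T cells that other cell types also express, was at 2.47, 2.09 and 5.23 FPKM in HFD+DSS, 2.53, 1.26 and 1.18 in CD+DSS, 0.511, 0.590 and 0.370 in HFD, and 0.386, 0.614 and 0.556 in CD. DSS libraries were above those without DSS on either diet, with adjusted p of 0.0501 in HFD+DSS against HFD and 0.229 in CD+DSS against CD (limma). Homing and cytokine receptor genes had a median interaction of -0.42 over 11 of 12 genes, led by Cxcr6 at -1.26 ± 0.40 (SE, adjusted p = 0.745). Of 12 T cell cytokine genes only Tnf and Il4 reached the level for a test. B cell genes had a positive median interaction, 0.70, over 10 of 11 genes, and colon epithelium genes -0.36 over 9 of 9. Smooth muscle genes had a median interaction of 0.91, with 6 of 6 positive, and a median of 0.88 in HFD+DSS against CD+DSS, also with 6 of 6 positive. Of all 14179 tested genes, 6948 were positive in the interaction and 6443 in that comparison. Adipocyte genes had a median interaction of -1.54, with 4 of 4 tested negative, and a median of 1.77 in HFD against CD, where 4 of 4 were higher in HFD at an unadjusted p under 0.05. Over all tested genes 51% had a negative interaction, and 1.77% were higher in HFD at that level. The summed level of all 5 adipocyte genes was 14.9 to 56.0 FPKM in HFD+DSS, 17.1 to 28.6 in CD+DSS, 29.2 to 103 in HFD and 4.34 to 38.8 in CD. None of these genes was called in those contrasts, and the part of tissue makeup in the receptor and CD3 values was not tested.

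Tested genes were ranked by the likeness of their profile over the 12 libraries to the mean standardised level of the 8 receptor and CD3 genes. Left out were receptor and immunoglobulin segments and predicted genes, those without a symbol, with one of Gm and digits or ending in Rik. The first 8 of the rest were Il2rb (Pearson r = 0.971), Ccl5 (0.969), Cd160 (0.940), Cd8a (0.937), Gzma (0.935), Lat (0.935), Gzmb (0.928) and Bin2 (0.914). Each r rests on 12 libraries, whose depth and lymphocyte content all of these genes share. Il2rb encodes the beta chain of the receptors for interleukins 2 and 15, and Ccl5 a chemokine of T and natural killer cells. Among the genes that make up that mean, r ran from 0.987 for Cd3e to 0.654 for Trgc1.

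**Figure D3:**
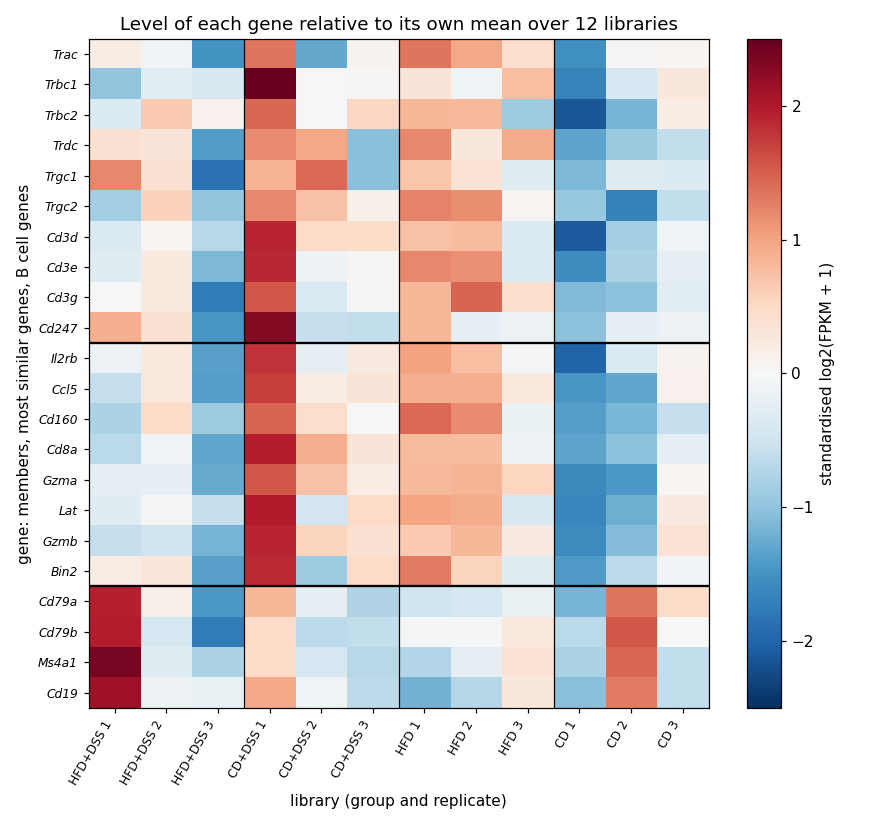
Standardised log2(FPKM + 1) (colour, SDs from each gene's own mean) of the 10 receptor and CD3 genes, the 8 similar genes named above and 4 B cell genes (rows) in 12 libraries (columns, by group). The first 18 rows are highest mostly in CD+DSS replicate 1, while the B cell rows are highest in HFD+DSS replicate 1, where B cell genes summed to 136 FPKM.

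Pairs of genes were compared over the 12 libraries on log2(FPKM + 1), 6 pairs in all, with permutation tests adjusted over them. Trac and Cd3e had a Pearson r of 0.84 (adjusted permutation p = 0.00543) and a Spearman rho of 0.72 (adjusted permutation p = 0.0331), and without the 2 libraries farthest from the median of Trac, CD replicate 1 and HFD+DSS replicate 3, r was 0.73 (adjusted permutation p = 0.0501). Cd3d and Cd3g had r = 0.80 (adjusted permutation p = 0.00543) and rho = 0.81 (adjusted permutation p = 0.0136), and r = 0.75 (adjusted permutation p = 0.0501) without CD replicate 1 and CD+DSS replicate 1. For Trbc1 and Trbc2 r was 0.66 (adjusted permutation p = 0.0439) and rho 0.60 (adjusted permutation p = 0.0727), but r was 0.084 without CD+DSS replicate 1 and CD replicate 1, so the relation rests on those libraries. Cd3e and Cd79a, part of the B cell receptor, had r = 0.20 and rho = 0.17 (adjusted permutation p of 0.635 and 0.726), and r = 0.16 without CD+DSS replicate 1 and HFD replicate 1. Within groups, as deviations from the group means, r of this pair was 0.50, a value that was not tested. Cd3e and Epcam had r = -0.10 and rho = -0.063 (adjusted permutation p of 0.746 and 0.851), r = -0.17 without the same libraries, and r = -0.39 within groups, also not tested. Cd3e and Hoxb13 had r = -0.47 and rho = -0.59 (adjusted permutation p of 0.184 and 0.0727), r = -0.65 without those 2 libraries, and r = 0.097 within groups, as deviations from the group means.

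Variable segments give a second view of the receptor that the constant regions did not use. The table holds 176 V segments of the 4 receptor loci, of which 89 were above 0 in any library, 3 (Trgv1, Trgv2 and Trgv7) in all 12, and 7 passed the filter of the test. Fragments on V segments numbered 139, 149 and 48 in HFD+DSS libraries, 166, 69 and 76 in CD+DSS, 120, 155 and 80 in HFD, and 53, 70 and 83 in CD. CD+DSS replicate 1 was the highest and HFD+DSS replicate 3 the lowest, and no 2 groups were separate. Trgv7, a segment used by many gamma-delta cells of the intestinal lining in mice, was at 1.25, 2.29 and 0.142 FPKM in HFD+DSS, 2.23, 1.21 and 0.911 in CD+DSS, 1.54, 0.616 and 0.709 in HFD, and 0.815, 0.865 and 1.47 in CD. Its groups overlapped, and at these counts the use of single segments cannot be compared. Fragments on Trdv segments were 22, 19 and 3 in HFD+DSS libraries, 9, 10 and 4 in CD+DSS, 4, 6 and 3 in HFD, and 5, 2 and 4 in CD, with replicates 1 and 2 of HFD+DSS the highest.

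**Figure D4:**
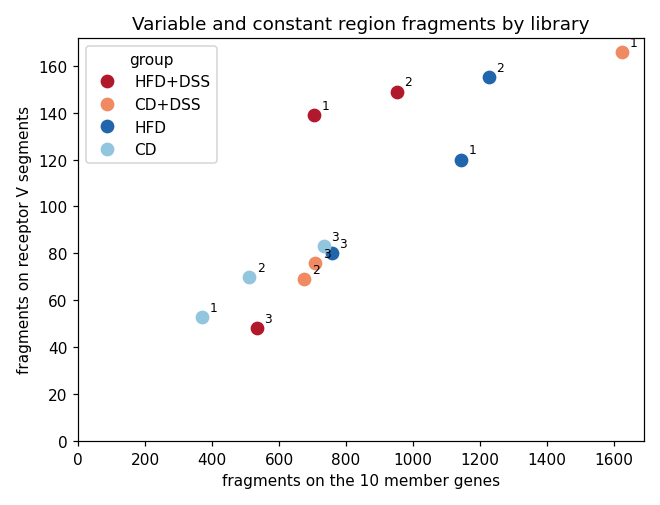
Fragments on V segments (y axis) against fragments on the 10 receptor and CD3 genes (x axis), 1 point per library, coloured by group and numbered by replicate. V segment fragments ran from 48 to 166 and those on the 10 genes from 371 to 1625, with CD+DSS replicate 1 highest on both axes and HFD+DSS replicate 1 above libraries with a like x value.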

How the data were processed

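RNA of mouse colon was profiled in 12 libraries. Per the labels, RNA came from an RNeasy mini plus kit, libraries from a SMARTER mRNA-Seq kit, and the genome build was mm10. The authors deposited 1 table of FPKM values; the sources used here do not give its aligner, counter or annotation. Low FPKM values step in whole fragments, so fragments were recovered with summed exon lengths from GENCODE M21, and 96.1% to 97.1% of values per library came out whole within 0.1. Library sizes recovered from the deposited FPKM differ from the fragments on genes, and against the geometric mean over libraries every library had a median ratio of 1.009, so the median gene does not move between libraries. Sequences came from GENCODE M21 transcripts and RefSeq promoter windows.

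Tests used limma 3.58.1 in R 4.3.3 (lmFit, contrasts.fit and eBayes with trend) on log2(FPKM + 1), with 1 mean per group and Benjamini-Hochberg adjustment over 14179 genes. Alternatives were a pseudocount of 0.1, no filter, TPM rescaling, leaving out each library, a replicate block, a posterior Hox covariate, limma-voom on recovered fragments and the 2 groups alone. Named genes were the 10 members, the 3 tested genes of each list with the smallest unadjusted interaction p, the 8 most similar genes outside the segments and predicted genes, and Hoxb13, Epcam and Cd79a. An item that this rule names is not reported here. Members, lists and rules were chosen with earlier results of these data known. Some genes outside that rule (Cd4, Trgv7, Ptcra, Rag1, Rag2, Dntt, Trgc3 and Trgc4, and further B cell genes in a plot) were named after their values were seen. Code was tested on simulated data.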

Additional observations from a re-analysis of the deposited data

Results flagged for a closer look

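No receptor or CD3 gene met a rule for a closer look. In 4 genes of the lists of T cell coreceptors and intraepithelial lymphocytes every CD+DSS library was above every CD library and every HFD+DSS library below every HFD library: the interaction (log2, limma) was -1.16 for Cd96 (adjusted p = 0.760), -2.59 for Nkg7 (adjusted p = 0.174), -3.17 for Gzma (adjusted p = 0.560) and -2.89 for Gzmb (adjusted p = 0.560). None passed the adjusted threshold, and the 4 genes were among 20 of 14179 with this pattern. Gzmk, a granzyme gene outside the lists that was singled out after its values were seen, was another of the 20, with an interaction of -1.47 (adjusted p = 0.560). Hoxb13 moved in the opposite sense, lower in every CD+DSS than in every CD library and higher in every HFD+DSS than in every HFD library, with an interaction of 7.39 (adjusted p = 0.560).

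Variable segments of the alpha locus, which entered no test, had at least 17 fragments in each HFD library and at most 16 in each CD library. That gap is 1 fragment, within counting error.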

How the results depend on the processing

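No receptor or CD3 gene was called under any of the 19 alternatives of each pairwise comparison or the 18 of the interaction, and their lowest adjusted p was 0.104. The replicate block, the 2 groups alone and the loss of a library outside a contrast leave each gene's fitted difference as it was. In the other alternatives too, the sign of the median over the tested genes did not change. Leaving out 1 library at a time, it ranged from 0.38 to 0.97 in CD+DSS against CD, from -0.60 to -0.33 in HFD+DSS against HFD, from 0.45 to 0.87 in HFD against CD, from -0.59 to -0.15 in HFD+DSS against CD+DSS and from -1.40 to -0.83 in the interaction. Medians that moved by more than the spread between replicates were 1.06 in CD+DSS against CD, -0.73 in HFD+DSS against CD+DSS and -1.64 in the interaction with voom, -1.56 in the interaction with a pseudocount of 0.1 and -0.83 in the interaction without CD+DSS replicate 1; the main log2(FPKM + 1) scale shrinks differences of low genes.

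Single genes reversed as follows, and the cause was not tested. In CD+DSS against CD, Trac was -0.048 without CD+DSS replicate 1. In HFD+DSS against HFD, Trbc2 was 0.078 without HFD+DSS replicate 1, 0.11 without HFD replicate 1, 0.10 without HFD replicate 2 and 0.088 with the Hox covariate, and Trgc1 was 0.29 without HFD+DSS replicate 3 and 0.048 with the Hox covariate. In HFD+DSS against CD+DSS, Trac was 0.0043 without HFD+DSS replicate 3 and 0.067 without CD+DSS replicate 1, and Trgc1 was 0.20 without HFD+DSS replicate 3 and 0.00408 with the Hox covariate. Over all leave-one-out fits Trac ran from -0.048 to 0.58 in CD+DSS against CD and from -0.57 to 0.067 in HFD+DSS against CD+DSS, Trbc2 from -0.41 to 0.11 in HFD+DSS against HFD, and Trgc1 from -0.52 to 0.29 in HFD+DSS against HFD and from -0.66 to 0.20 in HFD+DSS against CD+DSS. The correlation of Cd3e with Hoxb13 was 0.097 as deviations from group means. On the same measure that with Cd79a moved from 0.20 to 0.50 and that with Epcam from -0.10 to -0.39, without a change of sign.

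Counts over all genes were less stable. CD+DSS against CD called 12 genes, against 5 with no filter, 2 with the replicate block, 0 with the Hox covariate, 0 with the 2 groups alone and 0 to 36 leaving out a library. HFD+DSS against HFD called 48, against 10 with no filter, 12 with the block, 1 with the Hox covariate, 15 with the 2 groups alone and 1 to 78 leaving out a library. Deviations of same-numbered libraries had a median r of -0.11 over 18 pairs, from -0.46 to 0.20. Those of differently numbered libraries had 0.04 over 36 pairs, from -0.41 to 0.48. These ranges overlap and the labels do not explain the numbers, so the check cannot show whether the numbers pair samples. With the replicate block the medians were 0.69, -0.45, 0.71, -0.41 and -1.16, which this balanced design fixes at the main values. No receptor or CD3 gene was called with it.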
